A study of Mus musculus with 7 samples.

Results

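Macrophage identity genes were followed in mouse hindlimb tendon, 10 in all: Csf1r, Adgre1, Cd68, Lyz2, Cd14, Mrc1, Cd163, Folr2, Trem2 and Gpnmb. They were taken by gene symbol and make up 10 of the 42689 genes to which the listed transcripts were assigned. All 10 passed the filter on low counts, which left 16028 features to test. RNA-seq libraries were made from 3 groups of mice on a C57BL/6 background, in a study of TAK1 signalling and heterotopic ossification, the formation of bone in soft tissue. The tenotomy group (2 libraries) was the Achilles tendon of the left leg after it had been cut, taken 3 weeks after that cut and a partial-thickness scald burn of the back, given under isoflurane with buprenorphine for pain. The contralateral group (3 libraries) was the intact right-leg tendon of mice that had received the same burn, drugs and left-leg cut, also after 3 weeks. The uninjured group (2 libraries) came from wild-type mice with neither burn nor cut. The tissue taken ran from the gastrocnemius insertion to the heel bone and can hold muscle. Age and sex were not used here, and no label states whether each library came from its own mouse or which legs share one, so the p-values measure only the spread between these libraries.

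Macrophages are phagocytes that enter injured tissue as monocytes or persist there as resident cells, and both kinds need the receptor Csf1r, which reads the growth factors CSF1 and IL-34. Resident-type macrophages of connective tissue are commonly recognised by scavenger and uptake receptors such as Mrc1 (CD206, a mannose receptor), Cd163 (which takes up haemoglobin bound to haptoglobin) and Folr2 (folate receptor beta). Lipid-associated macrophages, which clear lipid-rich debris, are recognised by Trem2, a lipid-sensing receptor, and Gpnmb, a membrane glycoprotein of the lysosomal programme. None of the 10 genes is restricted to macrophages in every tissue: Gpnmb is also made by melanocytes and osteoclasts, Lyz2 by neutrophils, and Mrc1 by some endothelial cells.

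One library stood apart from its label. In log2 CPM (counts scaled to library size with TMM, as CPM) of the 10 genes, uninjured 1 lay at a Euclidean distance of 0.96 and 0.74 from the tenotomy libraries and 5.43 from uninjured 2. Uninjured 2 lay 0.99 to 1.23 from the contralateral libraries. Over all genes tested the same held, with uninjured 1 at 59.6 and 61.1 from the tenotomy libraries and at 114.0 from uninjured 2. Whether the labels of this library and another were exchanged was not tested and cannot be settled from the values used here, so uninjured 1 names a label only. Each comparison with the uninjured group is given with and without it. Library totals ran from 25927171 to 36725106 estimated counts, of which the 5 largest features held 76.4% to 81.4%, and the 10 genes together received 936 to 4687 counts per library.

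The sequences upstream of the genes on which the contrast turns are shown first. Each is the 250 bases before a start site in RefSeq (GRCm38.p6), read 5′ to 3′ on the gene's strand, with matches to any of 4 motifs in capitals. The motifs were GAGGAA (the ETS/PU.1 core), CACGTG and CATGTG (E-boxes of the kind read by MITF and TFE factors) and TGANTCA (AP-1), each searched on both strands. Mrc1 is at chr2:14229164-14229413 (plus strand), Cd163 at chr6:124304401-124304650 (plus), Folr2 at chr7:101845332-101845581 (minus, the window nearer to the quantified transcript of 2 that are listed), Trem2 at chr17:48346151-48346400 (plus) and Gpnmb at chr6:49036268-49036517 (plus).
Mrc1: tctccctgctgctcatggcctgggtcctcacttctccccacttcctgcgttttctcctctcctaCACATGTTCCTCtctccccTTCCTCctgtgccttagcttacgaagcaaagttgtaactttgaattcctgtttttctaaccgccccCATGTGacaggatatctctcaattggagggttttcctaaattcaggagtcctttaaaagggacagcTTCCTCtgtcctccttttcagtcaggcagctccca
Cd163: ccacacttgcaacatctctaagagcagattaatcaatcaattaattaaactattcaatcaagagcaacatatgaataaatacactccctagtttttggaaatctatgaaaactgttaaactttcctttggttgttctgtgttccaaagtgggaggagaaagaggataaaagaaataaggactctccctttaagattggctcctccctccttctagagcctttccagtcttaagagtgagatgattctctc
Folr2: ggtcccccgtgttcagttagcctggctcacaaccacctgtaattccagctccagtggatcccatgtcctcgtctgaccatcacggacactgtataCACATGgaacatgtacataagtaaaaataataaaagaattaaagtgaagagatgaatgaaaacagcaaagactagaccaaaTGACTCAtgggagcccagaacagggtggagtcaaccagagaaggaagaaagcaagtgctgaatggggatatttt
Trem2: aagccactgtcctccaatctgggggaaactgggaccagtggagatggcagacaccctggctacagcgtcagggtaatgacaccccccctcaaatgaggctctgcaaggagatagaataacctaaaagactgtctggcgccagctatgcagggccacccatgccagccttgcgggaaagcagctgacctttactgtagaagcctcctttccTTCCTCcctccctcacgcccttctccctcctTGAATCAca
Gpnmb: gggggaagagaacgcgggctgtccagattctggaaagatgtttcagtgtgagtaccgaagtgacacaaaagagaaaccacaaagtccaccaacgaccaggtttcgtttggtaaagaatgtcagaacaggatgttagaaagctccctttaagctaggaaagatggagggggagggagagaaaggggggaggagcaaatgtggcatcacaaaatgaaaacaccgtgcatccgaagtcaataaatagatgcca

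Mrc1 held 3 GAGGAA and 2 CATGTG matches. The Trem2 window held 1 GAGGAA and 1 TGANTCA match, and Folr2 held 1 CATGTG and 1 TGANTCA match. Cd163 and Gpnmb held none of the 4 motifs. Across the 7 members with a promoter used here, GAGGAA occurred in 3 (Cd68, Mrc1, Trem2), TGANTCA in 3 (Cd68, Folr2, Trem2), CATGTG in 2 and CACGTG in 0. Among all 32851 promoters of the same length the shares were 23.3% for GAGGAA, 6.75% for TGANTCA, 12.3% for CATGTG and 6.02% for CACGTG. Gpnmb and Cd163 held no match, so neither could share one with another gene of its class. Mrc1 and Folr2, both resident-type genes, each held CATGTG. Across the classes, Trem2 shared GAGGAA with Mrc1 and TGANTCA with Folr2. A match is a description of the letters and is not evidence of binding.

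The general macrophage genes were higher in cut tendon. Csf1r, Adgre1, Cd68 and Lyz2 rose from contralateral to tenotomy tendon, by 2.48-fold for Csf1r and by 5.40-fold to 5.95-fold for the others, and Cd14 did not pass the test. Over all members, 7 of 10 were higher at an adjusted p under 0.05 (edgeR quasi-likelihood test over all 7 libraries, Benjamini-Hochberg adjustment over all features), against 13.6% of all features called higher and 29.0% called in either direction. The median log2 fold change of the 10 genes was 2.02, beside -0.00 for all features tested.

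Csf1r (ENSMUSG00000024621.16, GRCm38 chromosome 18, 61100598 to 61132149, plus strand), the receptor for CSF1 and IL-34, had CPM values of 5.47, 7.43 and 6.03 in contralateral libraries, 15.6 and 15.8 in tenotomy libraries, and 15.8 and 7.26 in uninjured 1 and 2. Both tenotomy libraries were above every contralateral library, and the uninjured pair was split between the 2 levels. Its log2 fold change in tenotomy against contralateral was 1.31 (SE 0.30, edgeR adjusted p = 0.0203). Csf1r overlaps Hmgxb3 on the opposite strand, which had 71 to 110 counts per library, and the library protocol given does not state whether strand was kept.

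Adgre1 (ENSMUSG00000004730.15, chromosome 17, 57358691 to 57483527, plus), which encodes the surface protein F4/80, had CPM values of 1.35, 1.37 and 1.02 in contralateral libraries, 6.66 and 6.80 in tenotomy libraries, and 5.75 and 1.34 in uninjured libraries. Tenotomy libraries did not overlap contralateral ones, and its log2 fold change was 2.43 (SE 0.49, edgeR adjusted p = 0.0167). Cd68 (ENSMUSG00000018774.13, chromosome 11, 69664213 to 69666153, minus), a glycoprotein of the lysosomal membrane, had CPM values of 0.450, 1.02 and 0.742 in contralateral, 4.54 and 4.07 in tenotomy, and 3.41 and 0.895 in uninjured libraries. The lowest tenotomy value was above the highest contralateral one, and the log2 fold change was 2.51 (SE 0.50, edgeR adjusted p = 0.0167). The contralateral Cd68 values rested on 12 to 36 counts and were more widely spread than the tenotomy values on the log2 scale.

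Lyz2 (ENSMUSG00000069516.8, chromosome 10, 117277331 to 117282321, minus), the lysozyme of myeloid cells, was the member with the highest counts in tenotomy libraries. Its CPM was 8.25, 9.85 and 7.86 in contralateral, 49.7 and 53.2 in tenotomy, and 55.5 and 9.60 in uninjured libraries. Tenotomy and contralateral libraries did not overlap, and the log2 fold change was 2.57 with an SE of 0.59 (edgeR adjusted p = 0.0197). Its near-identical copy Lyz1 received 9 to 54 counts per library, so the division of reads between these 2 genes is uncertain. Cd14 (ENSMUSG00000051439.7, chromosome 18, 36725067 to 36726798, minus), the co-receptor for bacterial lipopolysaccharide, had CPM values of 0.450, 0.313 and 0.526 in contralateral, 0.898 and 1.23 in tenotomy, and 1.37 and 0.482 in uninjured libraries. Both tenotomy values were above the contralateral ones, but the log2 fold change of 1.30 (SE 0.45) did not pass (edgeR adjusted p = 0.0650), on 11 to 38 counts per library. Because these are bulk samples, fewer cells of a type and less RNA per cell cannot be told apart here or in any result that follows.

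**Figure D1:**
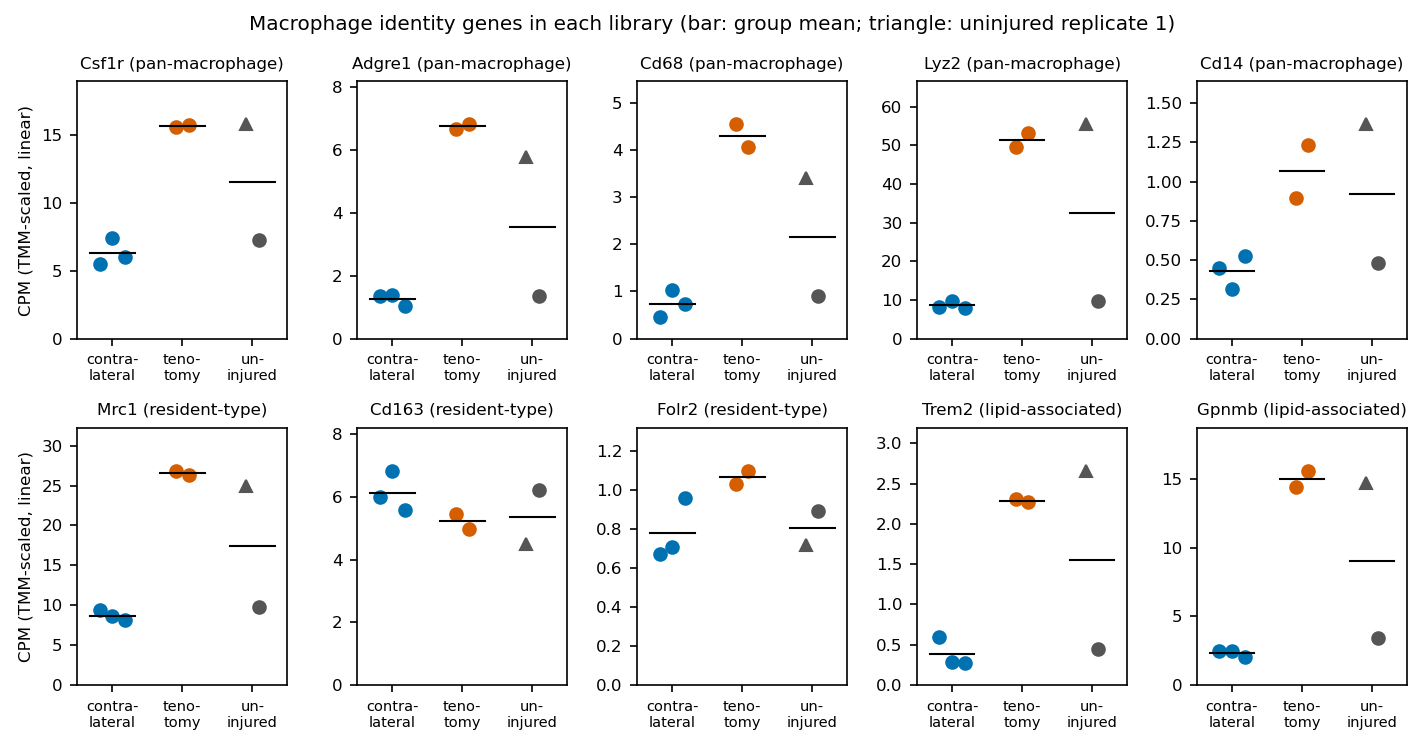
CPM (TMM-scaled, linear axis from 0) of each of the 10 genes in each of the 7 libraries, by group; points are libraries, the bar is the group mean and the triangle is uninjured 1. For Lyz2 the tenotomy libraries sit at 49.7 and 53.2 and the contralateral ones between 7.86 and 9.85, whereas for Cd163 the tenotomy libraries sit at 5.47 and 4.97, just under the contralateral ones.

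The resident-type genes did not move as a set. Mrc1 rose 3.05-fold in tenotomy against contralateral tendon, while Cd163 and Folr2 did not pass the test, with fold changes of 0.851 and 1.36. Mrc1 (ENSMUSG00000026712.3, chromosome 2, 14229392 to 14332057, plus) had CPM values of 9.37, 8.59 and 8.16 in contralateral, 26.8 and 26.3 in tenotomy, and 25.0 and 9.74 in uninjured libraries. Its groups did not overlap, and the log2 fold change was 1.61 (SE 0.34, edgeR adjusted p = 0.0173). In log2 CPM over the 7 libraries, the Mrc1 profile was nearer to that of Csf1r (distance 0.54) than Cd163 was to Folr2 (distance 0.92), and the distances were 0.53 and 0.91 without uninjured 1.

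Cd163 (ENSMUSG00000008845.9, chromosome 6, 124304656 to 124330527, plus) was the member with the opposite sign. Its CPM was 6.00, 6.83 and 5.57 in contralateral, 5.47 and 4.97 in tenotomy, and 4.49 and 6.23 in uninjured libraries. In CPM all tenotomy values were below all contralateral ones, by a margin as small as 5.47 against 5.57. In the deposited TPM the groups overlapped, at 0.2175, 0.2452 and 0.1589 in contralateral and 0.1671 and 0.1715 in tenotomy libraries. The log2 fold change of -0.23 (SE 0.18) did not pass (edgeR adjusted p = 0.370). The other 9 members had every tenotomy library above every contralateral one, an order that 31.9% of all features showed, and the reverse order seen for Cd163 held for 31.8%.

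Folr2 (ENSMUSG00000032725.10, chromosome 7, 101839988 to 101857194, minus) had CPM values of 0.675, 0.711 and 0.959 in contralateral, 1.03 and 1.10 in tenotomy, and 0.719 and 0.895 in uninjured libraries. The tenotomy libraries were just above the contralateral range, and the log2 fold change of 0.44 (SE 0.24) did not pass (edgeR adjusted p = 0.204). Folr2 rested on 18 to 38 counts, and the antisense gene Gm10602, which overlaps it, received 7 to 29, so the 2 cannot be fully separated if strand was not kept.

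Both lipid-associated genes rose in cut tendon, Gpnmb by 6.42-fold and Trem2 by 6.03-fold. Gpnmb (ENSMUSG00000029816.10, chromosome 6, 49036546 to 49070929, plus) had CPM values of 2.51, 2.48 and 2.01 in contralateral, 14.4 and 15.6 in tenotomy, and 14.7 and 3.41 in uninjured libraries. The groups of burned mice did not overlap, and its log2 fold change was 2.68 (SE 0.51, edgeR adjusted p = 0.0167). Trem2 (ENSMUSG00000023992.14, chromosome 17, 48346401 to 48354147, plus) had CPM values of 0.600, 0.285 and 0.278 in contralateral, 2.31 and 2.27 in tenotomy, and 2.66 and 0.447 in uninjured libraries. It too was separated between tenotomy and contralateral, and its log2 fold change was 2.59 with an SE of 0.66 (edgeR adjusted p = 0.0252), on 9 to 16 contralateral and 68 to 85 tenotomy counts.

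**Figure D2:**
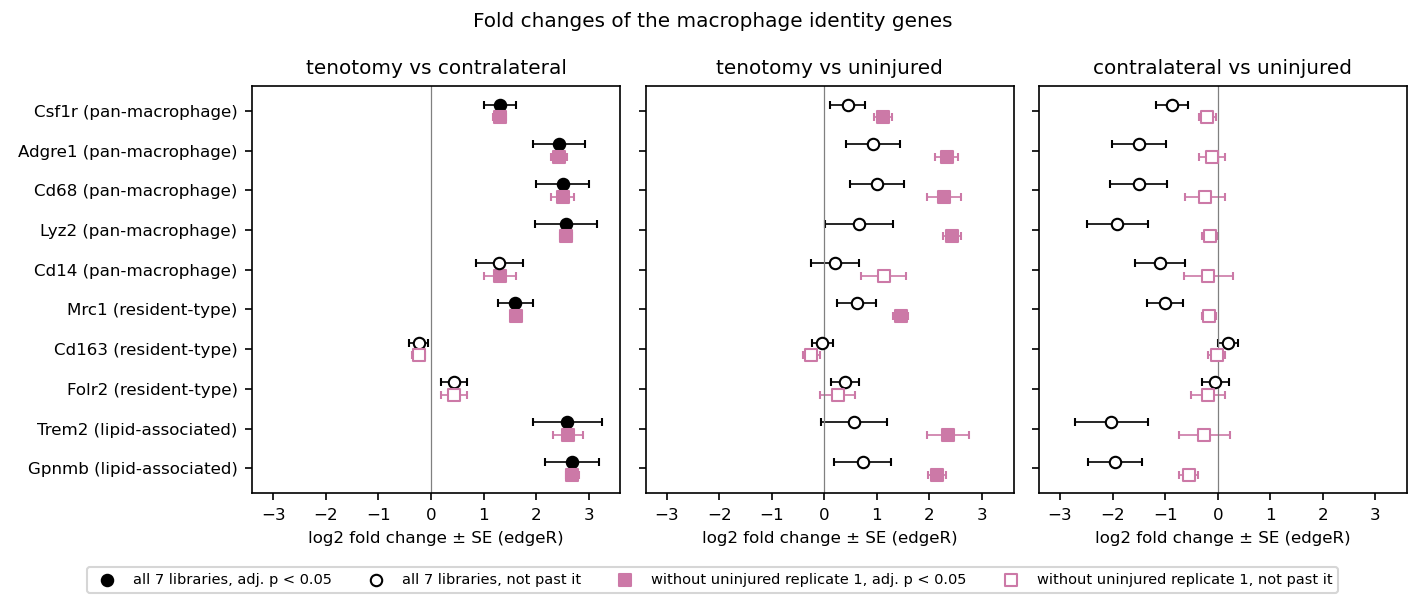
Log2 fold changes of the 10 genes from edgeR in each comparison, with bars of 1 SE, over all 7 libraries (circles) and without uninjured 1 (squares); filled symbols passed the test. In tenotomy against contralateral they run from -0.23 (Cd163) to 2.68 (Gpnmb), and the values against the uninjured group move with the library labelled uninjured 1.

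Trem2 counts did not all come from coding transcripts. The estimated counts of its 2 protein-coding transcripts were 3.4, 3.5 and 0.5 in contralateral, 48.6 and 43.6 in tenotomy, and 28.0 and 0.0 in uninjured libraries. Most of the remainder was assigned to Trem2-203, a retained-intron transcript of 4784 bases. Coding transcripts thus held 5.67% to 34.8% of Trem2 counts in contralateral libraries, 57.15% and 64.1% in tenotomy libraries, and 37.9% and 0.0% in uninjured 1 and 2. With the 10 members summed over protein-coding transcripts only, an alternative chosen after seeing the data, the log2 fold change of Trem2 in tenotomy against contralateral was 4.16 (SE 1.04, edgeR adjusted p = 0.0247). Among coding transcripts, Trem2-201 led in the tenotomy libraries (41.18 and 37.95 counts, against 7.40 and 5.64 for Trem2-202) and Trem2-202 led in uninjured 1 (20.62 against 7.41). This split is an estimate from few counts between transcripts of similar length (1088 and 1056 bases) and was not tested. Cd163 has 2 protein-coding transcripts of similar length whose split varied between libraries of 1 group, with 121.56, 74.25 and 138.09 counts on Cd163-201 in contralateral libraries, so only its gene sum was used.

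**Figure D3:**
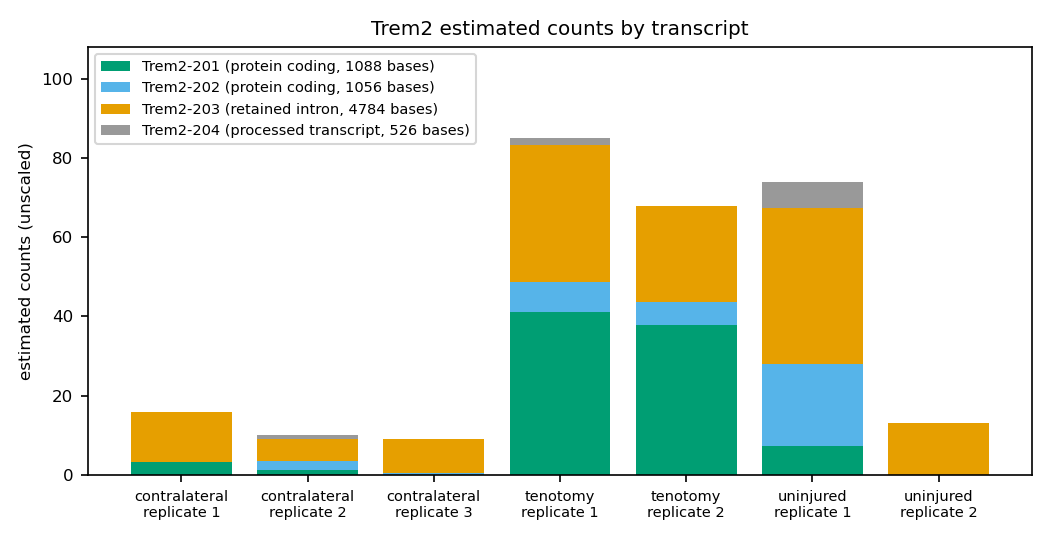
Estimated counts (not scaled for depth) of each Trem2 transcript, stacked by library, on a linear axis from 0. Protein-coding transcripts account for 48.6 and 43.6 counts in the tenotomy libraries and for 0.5 to 3.5 in the contralateral ones.

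The contrast of lipid-associated with resident-type genes was taken within each library, as the mean log2 CPM of Trem2 and Gpnmb minus that of Mrc1, Cd163 and Folr2. It was -1.41, -1.93 and -2.10 in contralateral libraries, 0.10 and 0.17 in tenotomy libraries, and 0.51 and -1.55 in uninjured libraries. Tenotomy and contralateral did not overlap, and the difference of their means was 1.95 beside a pooled SD of 0.29, or 1.22 when taken from log2 of TPM + 0.1. The added 0.1 was above every contralateral Trem2 value (0.009283 to 0.03895 TPM), which narrows the log2 change of that gene. As a score over chosen members the contrast was not tested.

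Set against general macrophage genes, the 3 resident-type genes parted. Relative to the mean log2 CPM of Csf1r, Adgre1 and Cd68, Cd163 was 1.93, 1.60 and 1.69 in contralateral and -0.51 and -0.61 in tenotomy libraries. Folr2 was -1.11, -1.55 and -0.77 in contralateral and -2.84 and -2.72 in tenotomy libraries. Mrc1 was 2.57, 1.93 and 2.24 against 1.78 and 1.78, a smaller step. The mean difference was thus over 1.5 log2 units for Cd163 and Folr2 and under 0.5 for Mrc1. The reference genes did not move alike. Csf1r, set against Adgre1 and Cd68 alone, fell from a mean of 2.66 in contralateral to 1.53 in tenotomy libraries. A fall on this scale was therefore not particular to resident-type genes.

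On the same relative scale, Gpnmb was 0.70, 0.16 and 0.25 in contralateral and 0.88 and 1.03 in tenotomy libraries, without overlap. Trem2 was -1.26, -2.70 and -2.35 in contralateral and -1.73 and -1.72 in tenotomy libraries, so its groups overlapped on this scale. That overlap came from contralateral 1 alone, where 12.62 of 16 Trem2 counts were on the retained-intron transcript Trem2-203. Cd14 was -1.63, -2.59 and -1.57 against -3.03 and -2.56, overlapping by a small margin. Uninjured 1 had Cd163 at -0.59 and Folr2 at -3.13, near the tenotomy values, and uninjured 2 had them at 1.55 and -1.16, within or near the contralateral ones. The gap between the groups for Gpnmb depends on which genes form the reference. In tenotomy against contralateral, Csf1r rose by 1.31 on the log2 scale, less than Adgre1 (2.43) and Cd68 (2.51). Gpnmb (2.68) and Trem2 (2.59) rose about as much as Adgre1, Cd68 and Lyz2 (2.57). A gain particular to the lipid-associated genes is thus not shown.

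**Figure D4:**
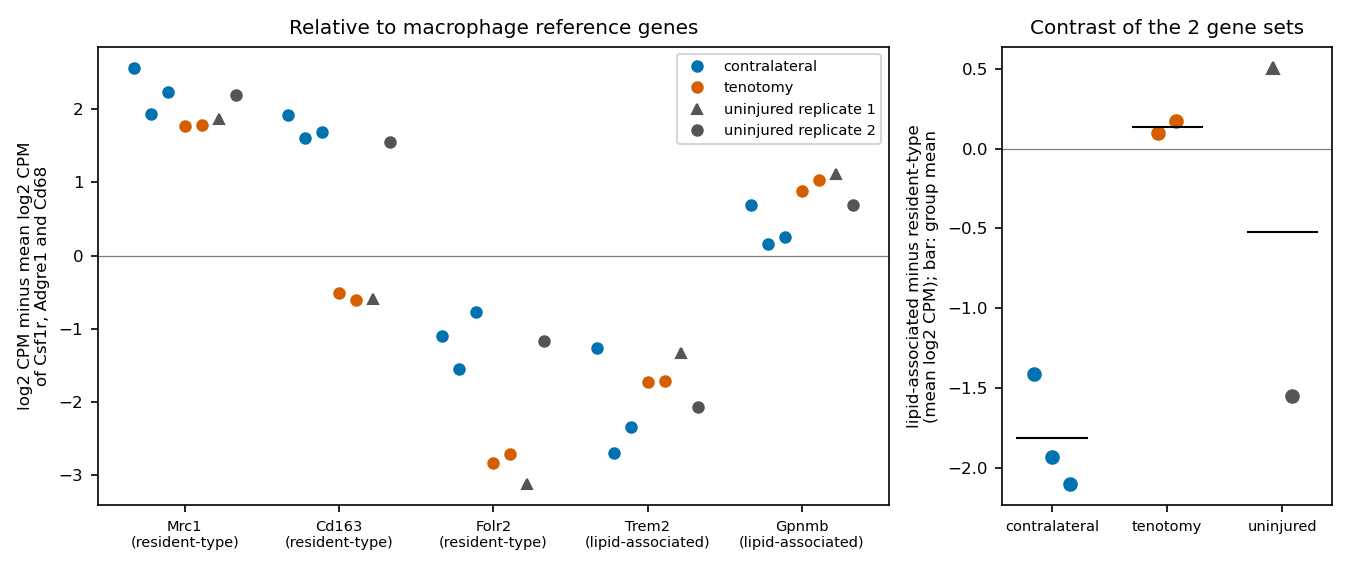
Left, log2 CPM of the 5 contrasted genes minus the mean log2 CPM of Csf1r, Adgre1 and Cd68, by library; right, mean log2 CPM of the lipid-associated minus that of the resident-type genes, with bars at group means. Cd163 falls from between 1.60 and 1.93 in contralateral to -0.51 and -0.61 in tenotomy libraries, and the contrast on the right is 0.10 and 0.17 in tenotomy and -1.41 to -2.10 in contralateral libraries.

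Levels were compared between genes per length, in deposited TPM summed per gene. In contralateral tendon Lyz2 led with 1.22 ± 0.274 TPM (SD, n = 3), followed by Mrc1 with 0.250 ± 0.0486, Csf1r with 0.240 ± 0.0550 and Cd163 with 0.207 ± 0.0441, and the last 3 did not differ beyond their spread. Folr2, Cd68, Gpnmb, Adgre1, Cd14 and Trem2 followed, from 0.132 down to 0.0284 TPM. In tenotomy tendon Lyz2 (6.89 ± 0.832 TPM, SD, n = 2) and Mrc1 (0.735 ± 0.0545) again led, and Cd68, Csf1r and Gpnmb lay together at 0.595, 0.589 and 0.580. Adgre1 (0.307) and Trem2 (0.264) followed, then Folr2 (0.175) and Cd163 (0.169), which did not differ beyond their spread, and Cd14 (0.111).

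The order of Gpnmb and Cd163 turned over between the groups. The ratio of Gpnmb to Cd163 in TPM was 0.490, 0.430 and 0.429 in contralateral, 3.14 and 3.70 in tenotomy, and 3.88 and 0.653 in uninjured libraries. The ratio of Mrc1 to Cd163 was 1.34, 1.08 and 1.23 in contralateral and 4.17 and 4.51 in tenotomy libraries. Mrc1 and Cd163 RNA were therefore at like levels per length in contralateral tendon and several-fold apart in cut tendon.

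The genes whose centred profile over the 7 libraries was nearest to each contrasted member were Myo7a, Kdelr2 and Pld3 for Mrc1 (distances 0.16, 0.18 and 0.18), and Adk, Aamp and Ercc5 for Cd163 (0.15, 0.17 and 0.18). For Folr2 they were Map3k11, Erp44 and Pgs1 (0.20 to 0.26), for Trem2 Tmem119, Thbs2 and Col12a1 (0.37 to 0.59), and for Gpnmb Aebp1, Bgn and Fstl1 (0.24 to 0.32). These neighbours depended on uninjured 1. Over the 6 libraries without it, chosen after seeing the data, the nearest 3 were the same for Gpnmb, and 1 of 3 was kept for Mrc1 (Myo7a) and for Trem2 (Tmem119), and 0 of 3 for Cd163 and Folr2. Among the members, Lyz2 and Gpnmb were nearest to each other (0.42) and Lyz2 and Cd163 farthest apart (3.77). Without uninjured 1, Lyz2 was nearest to Adgre1 (0.31), and Lyz2 and Cd163 were still farthest apart (3.20).

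Other genes of the same groups were read from lists. Of 16 other general macrophage and myeloid genes, 15 rose in tenotomy against contralateral tendon (edgeR, adjusted p under 0.05), with a median log2 fold change of 2.23. The pore-forming Mpeg1 (3.48), Aif1 (3.19) and the protease Ctss (3.16) had the largest changes. The value of Aif1 rested on 0, 3 and 7 counts in the contralateral libraries, so its size is uncertain. Mertk, the receptor for dying cells, had a value of 0.44 and did not pass (edgeR adjusted p = 0.136).

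Of 12 other resident-type genes, 10 were tested and 6 rose, with a median of 0.81. The adhesion receptor Siglec1 (1.30), the scavenger receptor Stab1 (1.29) and the TAM ligand Gas6 (1.26) had the largest changes, so a higher level was not limited to Mrc1. Which cells made these RNAs was not tested. Lyve1, a hyaluronan receptor shared with lymphatic endothelium, had -0.56 and did not pass (edgeR adjusted p = 0.0737). It did pass as lower when these 2 groups were fitted on their own, which called 7 of the 10 higher and 1 lower. Timd4 and Vsig4 fell under the filter, with at most 9 and 7 counts in a library.

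Of 12 other lipid-associated genes, 7 rose and 2 fell, with a median of 0.98. The galectin Lgals3 rose by 2.37 on the log2 scale. Lpl, a lipoprotein lipase, fell by 2.06 and Cd36, a fatty acid transporter, fell by 1.81, and both are also made by muscle and fat. Spp1, osteopontin, had 2.11 and did not pass (edgeR adjusted p = 0.0525). The medians of the 2 lists, 0.81 and 0.98, were closer together than those of the members, 0.44 and 2.64.

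Of 12 macrophage growth factors and regulators, 10 were tested, 3 rose and 2 fell. The transcription factors Runx1 (2.58), Irf8 (1.86) and Spi1 (1.76, encoding PU.1) rose, and Cebpb (-0.80) and Tfeb (-0.84) fell. The ligands of Csf1r did not pass: Csf1 had 0.10 (edgeR adjusted p = 0.725) and Il34 had -0.39 (edgeR adjusted p = 0.168). Mitf, a regulator of Gpnmb in other cells, had -0.07 (edgeR adjusted p = 0.751).

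**Figure D5:**
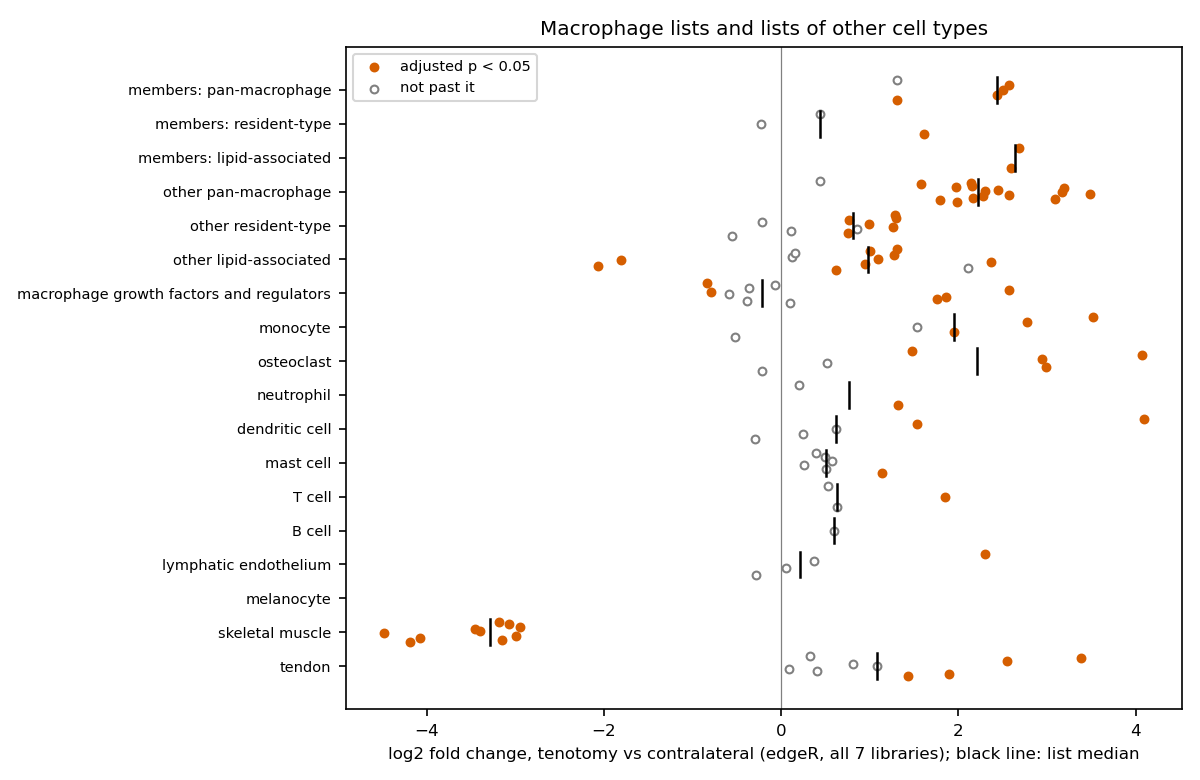
Log2 fold changes in tenotomy against contralateral for each tested gene of each marker list (edgeR, all 7 libraries); points are genes, filled points passed the test and the black line is the list median. The other general macrophage genes centre on 2.23 and the skeletal muscle genes on -3.29.

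Markers of other cells moved along with the members. All 10 skeletal muscle genes fell in tenotomy against contralateral tendon, with a median of -3.29, and their summed CPM was 7458 to 10140 in contralateral, 851 and 856 in tenotomy, and 1041 and 7578 in uninjured libraries. Of 9 tendon genes 4 rose, among them the collagens Col1a1 and Col3a1, with summed CPM of 857 to 1128 in contralateral, 5127 and 5132 in tenotomy, and 4689 and 3024 in uninjured libraries. Those 2 collagens carried most of the sum in tenotomy libraries (4577 and 4582 CPM), and the other 7 tendon genes summed to 283 to 480 CPM in contralateral and 550 and 549 in tenotomy libraries. The part of tissue makeup in the rise of the macrophage genes was not tested. The defining tendon gene Tnmd was present in every library, at 5.41 to 28.5 CPM.

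For the other cells that make some of the 10 genes, the levels were these. Of 9 osteoclast genes 6 were tested and 4 rose, with summed CPM of 7.67 to 8.28 in contralateral and 34.9 and 35.3 in tenotomy libraries. Acp5 had -0.22, and Calcr, Dcstamp and Oscar had at most 4 counts in a library. Neutrophil genes summed to 1.80 to 2.78 CPM in contralateral and 3.23 and 3.54 in tenotomy libraries, with 1 of 2 tested genes higher, beside 49.7 and 53.2 CPM of Lyz2. All 5 melanocyte genes stayed under the filter, at a summed 0.398 to 0.450 CPM in contralateral and 0.467 and 0.544 in tenotomy libraries, beside 14.4 and 15.6 CPM of Gpnmb. Lymphatic endothelial genes summed to 9.71 to 10.7 and 14.4 to 14.7 CPM, with 1 of 4 higher. The part of osteoclast and neutrophil RNA in the rise of Gpnmb and Lyz2 was not tested.

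The titles number the libraries in separate series, which no label calls a batch, and 1 such series held all 3 contralateral libraries and tenotomy 1. Within it, tenotomy 1 minus the contralateral mean in log2 CPM was 2.60 for Gpnmb, 2.47 for Trem2, 1.62 for Mrc1, -0.16 for Cd163 and 0.39 for Folr2. These stood close to the values of tenotomy 2 against the same libraries, which were 2.72, 2.44, 1.59, -0.30 and 0.48. A second series held tenotomy 2 and uninjured 1, and uninjured 2 was alone in the third. Within the second, tenotomy 2 minus uninjured 1 was 0.08 for Gpnmb, -0.22 for Trem2, -0.06 for Lyz2, 0.07 for Mrc1, 0.14 for Cd163 and 0.57 for Folr2. The library that resembled tenotomy therefore shared its series with a tenotomy library, and the part of the series in that likeness was not tested.

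The calls depended on which libraries set the estimate of the spread: the SE of Mrc1 was 0.34 over all libraries and 0.10 when tenotomy and contralateral were fitted on their own. In the fit over all libraries, leaving out any 1 contralateral or tenotomy library left 0 of 10 members and 0 features called, with 7 to 9 members, and 27.2% to 38.3% of features, at an unadjusted p under 0.05. In that second fit 8 of 10 were higher, Cd14 included (edgeR adjusted p = 0.00427), against 22.1% of features higher. Leaving out each of those 5 libraries in turn from that fit, a check added after seeing the data, left 8 of 10, except that 7 passed without tenotomy 2, where Cd14 did not (edgeR adjusted p = 0.0594). Those fits called 14.7% to 23.3% of features higher.

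Tenotomy against uninjured tendon asks how the cut tendon differs from that of mice with no injury. Over all libraries 0 of 10 members passed, and 0.00% of features did (edgeR; at an unadjusted p under 0.05, 0 members and 10.9% of features, 524 higher and 1217 lower; DESeq2 called 145 features and none of the members to which it gave an adjusted p). The log2 fold changes ran from -0.04 for Cd163 to 1.00 for Cd68. The 2 uninjured libraries were themselves 2.52 apart in log2 CPM for Lyz2, 2.41 for Trem2, 2.09 for Gpnmb and 1.35 for Mrc1, all higher in uninjured 1.

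Without the library labelled uninjured 1, which leaves 1 uninjured library assumed to vary like the other groups, 7 of 10 members were higher in tenotomy (edgeR), against 11.4% of features. Lyz2 rose by 2.43, Trem2 by 2.35, Adgre1 by 2.33, Cd68 by 2.27, Gpnmb by 2.14, Mrc1 by 1.45 and Csf1r by 1.12 on the log2 scale. Cd14 (1.13), Folr2 (0.25) and Cd163 (-0.25) did not pass (edgeR adjusted p = 0.0788, 0.647 and 0.327). With uninjured 1 and without uninjured 2, 0 of 10 passed, and 0.0830% of features did. The comparison shares its tenotomy libraries with the one against contralateral tendon.

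Contralateral against uninjured tendon asks whether the intact leg of a mouse with a burn and a cut left tendon differs from that of a mouse with neither. Burn and cut cannot be told apart in it. Over all libraries 0 of 10 members passed and 0.00% of features did (edgeR; at an unadjusted p under 0.05, 8 of 10 members and 19.2% of features, 1397 higher and 1687 lower). DESeq2 called Lyz2 and Gpnmb lower, against 0.886% of features, and called 0 members without uninjured 1, where 7 members, Gpnmb among them, were given no adjusted p. Gpnmb had a log2 fold change of -1.96, Lyz2 -1.91, Trem2 -2.02, Mrc1 -0.99, Cd163 0.19 and Folr2 -0.04.

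Without uninjured 1, 0 of 10 passed (0.617% of features), 1 member (Gpnmb) and 10.9% of features had an unadjusted p under 0.05, and the log2 fold changes ran only from -0.55 (Gpnmb) to -0.02 (Cd163). Without uninjured 2, 8 of 10 were lower in contralateral tendon, against 15.0% of features. The difference of the general and lipid-associated genes thus rested on uninjured 1. In uninjured 2 Csf1r, at 7.26 CPM, was within the contralateral range, as were Adgre1, Cd68, Lyz2, Cd14 and Trem2. Gpnmb in uninjured 2, at 3.41 CPM, was above all 3 contralateral libraries, and so was Mrc1, at 9.74 CPM.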

How the data were processed

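Gene expression was measured by RNA-seq in 7 libraries (TruSeq RNA kit, per the labels' protocols). Reads were quantified by the authors with kallisto after FastQC 0.11.4, per the submitters' processing notes, which name the build GRCh38 although the transcript IDs are mouse; the kallisto version is not given in the sources used here. The deposited tables hold estimated counts and TPM per transcript, per the file headers. Of 103639 transcripts, 101510 matched GENCODE annotation of GRCm38 by ID (57625 with the same version).

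Estimated counts were summed per gene, rounded, filtered (filterByExpr, minimum count 10), TMM-scaled and tested with edgeR 4.0.16 (quasi-likelihood, all 7 libraries, 3 group means, R 4.3.3), with Benjamini-Hochberg adjustment over all 16028 features and a threshold of 0.05. Log2 CPM used a prior count of 2. The procedure was run on simulated counts with the same spread for every gene and no library unlike its group. That run does not test how the procedure handles the spread between the uninjured libraries. Alternatives were DESeq2 1.42.0, limma-voom (limma 3.58.1), upper quartile scaling, no filter, length-scaled TPM, a series covariate, fits of 2 groups and leaving out each library. The members and lists were chosen with earlier results of these data known. Named genes were all members, up to 3 per list with the largest change among those that passed in tenotomy against contralateral, and the 3 nearest profiles with a mean log2 CPM of at least 1; others named (a list's defining or uncalled genes) were chosen after their values were seen. Promoters were cut to the 250 bases before the RefSeq start; 5 are printed, those of Cd68 and Lyz2 were only searched, and those of Csf1r, Adgre1 and Cd14 were not used here. B cell, T cell, mast cell, dendritic cell and monocyte lists were also read.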

Additional observations from a re-analysis of the deposited data

How the results depend on the processing

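No paired analysis was possible because the replicate numbers were given in accession order and pair no libraries. In tenotomy against contralateral, 4643 features were called over all libraries, 7385 with only those groups, 7308 and 7336 without uninjured 1 or 2, and 0 without any contralateral or tenotomy library; members called ranged from 0 to 8. In fits of those 2 groups alone, leaving out 1 library gave 5245 to 7618 features. Upper quartile scaling moved the median of all features by 0.11 in this comparison and no member's call. In tenotomy against uninjured, DESeq2 called 145 features, no filter 15, the series covariate 4, and leave-one-out fits 0 to 4275 (14 without uninjured 2), with 0 to 7 members; DESeq2 without uninjured 1, added after seeing the data, called 2475 features and 7 members. In contralateral against uninjured, DESeq2 called 223 features and 2 members, no filter 337 and 2, and the series covariate 2466 and 7, an estimate to which uninjured 2, alone in its series, does not contribute; leave-one-out fits gave 0 to 5393 features (105 without uninjured 1, or 195 with DESeq2) and 0 to 8 members.

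The lipid-associated minus resident-type difference in tenotomy against contralateral was 1.22 with log2 of TPM + 0.1. Against uninjured it was 0.66 for tenotomy, from -0.37 (without uninjured 2) to 1.69 (without uninjured 1), and -1.30 for contralateral, from -2.32 to -0.27.

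Signs turned for tenotomy against uninjured with the series covariate in Csf1r (-0.0041), Lyz2 (-0.061), Cd14 (-0.15), Cd163 (0.14) and Trem2 (-0.23), and without uninjured 2 in Csf1r (-0.0089), Lyz2 (-0.11), Cd14 (-0.37), Cd163 (0.22) and Trem2 (-0.21). Without uninjured 1 the same 5 were 1.12, 2.43, 1.13, -0.25 and 2.35. Without tenotomy 2, Cd14 was -0.035 and Cd163 0.026, and with upper quartile scaling Cd163 was 0.0019. For contralateral against uninjured, Cd163 was -0.021 without uninjured 1 and 0.45 without uninjured 2, and Folr2 was -0.22 without contralateral 3, 0.22 with the series covariate and 0.049, 0.030 and 0.13 without contralateral 1, contralateral 2 and uninjured 2. With the series covariate, uninjured 2 is alone in its series and does not contribute to either comparison with uninjured. Tenotomy against uninjured then compares tenotomy 2 with uninjured 1 only. The sign changes with the covariate and those without uninjured 2 are therefore not separate results, as neither estimate uses that library. Beyond this, the cause was not tested. No member reversed in tenotomy against contralateral. DESeq2 gave no adjusted p for 6 and 4 members in the comparisons with uninjured. Among the members, low counts limit Cd14, Folr2 and Trem2.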

Other observations

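Markers of monocytes and dendritic cells, which share precursors with macrophages, were also read in tenotomy against contralateral tendon. Of 6 monocyte genes 5 were tested and 3 rose: Fn1 (3.52 on the log2 scale, also a matrix gene), Plac8 (2.78) and the chemokine receptor Ccr2 (1.95). Ccr2 had CPM values of 1.54, 2.19 and 2.10 in contralateral, 7.75 and 7.33 in tenotomy, and 9.16 and 2.10 in uninjured libraries. Cx3cr1, the fractalkine receptor, had 1.53 and did not pass (edgeR adjusted p = 0.0508). Of 7 dendritic cell genes 5 were tested and 2 rose, the integrin Itgax (4.09), which macrophages also make, and the lectin Cd209a (1.53). Contralateral counts were low, at 4, 7 and 2 for Plac8, 3, 5 and 6 for Itgax, and 5, 10 and 3 for Cd209a. The sizes of these changes are therefore uncertain.

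Of 9 osteoclast genes, those that rose most were the proton pump subunit Atp6v0d2 (4.07), the collagen-cleaving protease Ctsk (2.99) and Mmp9 (2.94), and fibroblasts or macrophages can make all 3. Atp6v0d2 had only 2, 4 and 3 contralateral counts and Mmp9 only 4, 4 and 3, so the sizes of their changes are uncertain. Among 6 mast cell genes Cpa3 rose (1.14), among 6 T cell genes 3 were tested and Cd4 rose (1.85), and of 5 B cell genes 1 was tested and it did not pass. The neutrophil gene that rose was Csf3r (1.31), and the lymphatic gene that rose was Pdpn (2.30), which fibroblasts also make.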
